A study of Mus musculus with 6 samples.

Results

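The BCL2 family genes were examined in splenic T cells that lacked the phosphatase DUSP4. The 10 listed genes were Bcl2, Mcl1, Bcl2l1, Bcl2l11, Bax, Bak1, Bad, Bid, Bbc3 and Pmaip1, and a probe set that names 1 gene alone was used for 9 of them, out of 22180 genes measured in this way. Bax was not analysed here. Where a gene had several such probe sets, the one with the highest mean over all 6 arrays was taken. None of the 9 genes passed the test between the genotypes, with intervals that reached up to 2.30-fold for Bbc3. Bbc3 and Pmaip1 differed between arrays of different replicate numbers, by 2.63-fold and 2.34-fold between the pairs numbered 3 and 1. These calls were lost when any 1 array was left out. Such calls over all genes then fell from 543 to between 4 and 102.

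BCL2 family proteins decide at the outer mitochondrial membrane whether a cell releases cytochrome c and enters apoptosis. The pro-survival members BCL2, MCL1 and BCL-XL (encoded by Bcl2l1) bind and hold in check the effectors BAX and BAK1, which form pores in that membrane when activated. BH3-only members, among them BIM (Bcl2l11), BAD, BID, PUMA (Bbc3) and NOXA (Pmaip1), respond to stress or to loss of survival signals, and act by binding the pro-survival members or by activating the effectors. In resting T cells, IL-7 signaling through STAT5 maintains Bcl2, MCL1 is required for survival, and BIM is a main killer of T cells deprived of cytokine.

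The study asked how DUSP4, a dual-specificity phosphatase of the MAP kinase phosphatase group, acts on STAT5 and T cells. The arrays compared WT mice with DUSP4-/- mice, which carry the germline knockout in every cell type on a C57Bl/6 background, with 3 samples of each genotype from animals aged 6 to 8 weeks. T cells were enriched from fresh splenocytes with magnetic beads to a purity of 90 to 95% by the series' description, and RNA was taken at once, so none of the cells had been cultured, stimulated or treated. The labels do not state the sex of these mice. Expression was read on Affymetrix Mouse Gene 2.0 ST arrays, 1 per sample, and values are on the log2 scale, where 1 unit is a 2-fold change. Samples carry the numbers 1 to 3 within each genotype, and the study describes independent pairs of WT and DUSP4-/- samples. Arrays of the same number are therefore set side by side as pairs here.

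Array medians lay between 4.99 and 5.07, and no pair of arrays held identical values. Dusp4 read 6.33, 7.61 and 8.13 in WT replicates 1, 2 and 3 and 5.10, 6.18 and 6.78 in DUSP4-/- replicates 1, 2 and 3. It was lower in the DUSP4-/- array of each pair, with log2 differences of -1.23, -1.44 and -1.35, although the groups overlapped, and the limma adjusted p was 1.00, or 0.182 with replicate number added to the fit as a block. The CD3 subunit gene Cd3e read 11.49 to 11.78, and the summed level of 8 of 10 listed T cell markers was 13.69 to 13.91. Cd4 read 10.82 to 11.10 and Cd8a 10.32 to 10.79, so transcripts of both helper and cytotoxic T cells were present. The paper's legend for these arrays names naive T cells and refers to its bead method. That method is described for naive CD4 T cells and removes CD8+ cells. The Cd8a level is at odds with such removal, so which T cells were kept is not settled. Xist, the noncoding RNA of the inactive X chromosome in females, read 10.09 and 10.12 in replicate 1 of the WT and DUSP4-/- groups and 3.58 to 3.87 in the other 4 arrays. Replicate 1 thus stands apart from the other pairs, and apparent sex and any other difference of that pair cannot be told apart. In such bulk samples, fewer cells of a type and less RNA per cell cannot be told apart either.

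The promoters of Bbc3 and Bcl2l11 are shown because they belong to the most and the least variable BH3-only genes of these arrays. The sequences are RefSeq windows of the 250 bases before an annotated transcript start, on the plus strand of GRCm38.p6, at chr7:16309333-16309582 for Bbc3 and chr2:128125788-128126037 for Bcl2l11. The Bbc3 window is the first of 3 for that gene and belongs to a transcript that starts downstream of the first annotated base of the gene, at position 16308398. Capitals mark matches to the motif GCGNGGGCG of the EGR zinc finger factors or to GTAAACA of the FOXO factors, searched on both strands.
Bbc3: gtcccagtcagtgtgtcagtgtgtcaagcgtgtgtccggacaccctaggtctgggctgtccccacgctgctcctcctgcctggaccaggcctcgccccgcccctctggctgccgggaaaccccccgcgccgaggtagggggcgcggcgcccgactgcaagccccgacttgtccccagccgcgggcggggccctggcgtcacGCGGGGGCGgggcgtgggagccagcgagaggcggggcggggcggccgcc
Bcl2l11: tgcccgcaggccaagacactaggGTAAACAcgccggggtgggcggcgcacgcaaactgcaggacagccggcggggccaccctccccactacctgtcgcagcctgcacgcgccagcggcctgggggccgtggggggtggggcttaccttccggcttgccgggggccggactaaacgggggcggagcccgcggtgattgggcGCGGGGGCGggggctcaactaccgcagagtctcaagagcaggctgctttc
Both windows held the same EGR letters on the plus strand at nearly the same place, 49 to 41 bases before the start in Bbc3 and 50 to 42 bases before it in Bcl2l11. The Bcl2l11 window also held the FOXO letters 227 to 221 bases before the start, and the matches did not overlap. Of 32851 RefSeq promoter windows of the same length, 4.7% held the EGR motif and 3.17% the FOXO motif. A window was given for 9 of the 10 listed genes, 15 windows in all, and another Bbc3 window held both motifs on the minus strand. The Bcl2l11 window shown is the first of 2 for that gene, and the other held neither motif. A p53 half-site was searched as well. It was held by 7.13% of all windows and by that of Bax, and by none of the Bbc3 windows. These matches describe letters only, and whether any factor binds there was not measured.

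Among the pro-survival genes, Bcl2 on chromosome 1 read 9.84, 9.62 and 9.62 in WT replicates 1, 2 and 3 and 9.97, 9.69 and 9.69 in DUSP4-/- replicates 1, 2 and 3 (probe set 17226043). Both arrays of replicate 1 were the highest of their genotype, and the groups overlapped. The means were 9.69 ± 0.13 in WT and 9.78 ± 0.16 in DUSP4-/- (SD, n = 3), a log2 difference of 0.093 (SE 0.14) or 1.07-fold, with a 95% interval of 0.855 to 1.33-fold. Bcl2 was the only member that kept 1 sign across all pairs, with differences of 0.14, 0.070 and 0.075. A dimmer second probe set for Bcl2 (17216395) read 4.65, 4.91 and 5.03 in WT and 4.34, 4.86 and 4.87 in DUSP4-/-, and its pair differences of -0.31, -0.046 and -0.15 had the opposite sign. The probe sets for Bcl2 thus disagreed on direction, and neither difference passed the test. The second had means of 4.86 in WT and 4.69 in DUSP4-/-, below the median of the probe set means (5.03). Whether it was above background was not tested.

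Mcl1 on chromosome 3, whose short-lived protein is needed throughout the life of a T cell, read 10.18, 10.47 and 10.45 in WT and 10.16, 10.45 and 10.56 in DUSP4-/- (probe set 17400418). Here both arrays of replicate 1 were the lowest of their genotype. The means of 10.37 ± 0.16 and 10.39 ± 0.21 (SD, n = 3) differed by 0.026 (SE 0.15), and the 95% interval ran from 0.796 to 1.30-fold. A dimmer second probe set (17407826) gave pair differences of 0.22, -0.25 and 0.16, also of mixed sign. Bcl2l1 on chromosome 2, which encodes BCL-XL, read 5.63, 5.72 and 5.65 in WT and 5.36, 5.76 and 5.67 in DUSP4-/- (probe set 17392991). Its log2 difference of -0.066 (SE 0.14; 0.955-fold, 95% interval 0.763 to 1.20) came from the pair numbered 1, at -0.27, while the other pairs differed by 0.046 and 0.026.

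Of the effectors, Bak1 on chromosome 17 read 7.55, 7.26 and 6.95 in WT and 7.54, 7.10 and 7.12 in DUSP4-/- (probe set 17342676). The genotype means were the same to 2 decimals, 7.25 ± 0.30 and 7.25 ± 0.25 (SD, n = 3), with a 95% interval of 0.733 to 1.36-fold around a log2 difference of -0.0025. Both arrays of replicate 1 lay above all others.

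Among the BH3-only genes, Bcl2l11 on chromosome 2 read 7.65, 7.84 and 7.94 in WT and 7.81, 7.84 and 7.83 in DUSP4-/- (probe set 17375961). The DUSP4-/- arrays agreed within an SD of 0.019 and lay inside the WT range, and the log2 difference was 0.019 (SE 0.13; 1.01-fold, 95% interval 0.828 to 1.24). The pairs differed by 0.16, 0.00021 and -0.10. Bad on chromosome 19, a sensitizer that is inactivated by survival kinases, read 5.23, 5.08 and 5.18 in WT and 5.32, 5.0 and 5.11 in DUSP4-/- (probe set 17356974). Its log2 difference was -0.018 (SE 0.13, 95% interval 0.797 to 1.22-fold). Bad lay close to the median of the probe set means (5.03), and whether it was above background was not tested. Bid on chromosome 6, which links death receptors to mitochondria after caspase cleavage, read 6.11, 5.81 and 5.67 in WT and 6.03, 5.83 and 5.77 in DUSP4-/- (probe set 17470457). Its log2 difference was 0.013 (SE 0.15, 95% interval 0.789 to 1.29-fold), and both arrays of replicate 1 were the highest.

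Bbc3 on chromosome 7, the gene for PUMA and a target of p53 and FOXO factors, read 5.15, 5.77 and 6.44 in WT replicates 1, 2 and 3 and 5.42, 5.66 and 6.92 in DUSP4-/- replicates 1, 2 and 3 (probe set 17474097). The arrays sorted by replicate number and not by genotype: both of replicate 1 were the lowest and both of replicate 3 the highest. The replicate 1 values lay not far above the median of the probe set means (5.03), and whether they exceeded background was not tested. The genotype means of 5.79 ± 0.65 and 6.00 ± 0.80 (SD, n = 3) differed by 0.21 (SE 0.43; 1.16-fold, 95% interval 0.584 to 2.30), with pair differences of 0.27, -0.10 and 0.47. The interval was the widest among the 9 members. Blocking on replicate number, the Bbc3 interval was 0.918 to 1.47-fold.

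Pmaip1 on chromosome 18, the gene for NOXA, which binds and helps to degrade MCL1, read 6.14, 7.21 and 7.47 in WT and 6.39, 7.13 and 7.51 in DUSP4-/- (probe set 17351414). As for Bbc3, the arrays sorted by replicate number, and the values of replicate 2 (7.13 and 7.21) did not reach those of replicate 3 (7.47 and 7.51) in either genotype. The means of 6.94 ± 0.70 and 7.01 ± 0.57 (SD, n = 3) differed by 0.072 (SE 0.38; 1.05-fold, 95% interval 0.571 to 1.94), and the pairs differed by 0.25, -0.075 and 0.043. Blocking on replicate number, it was 0.875 to 1.26-fold.

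**Figure D1:**
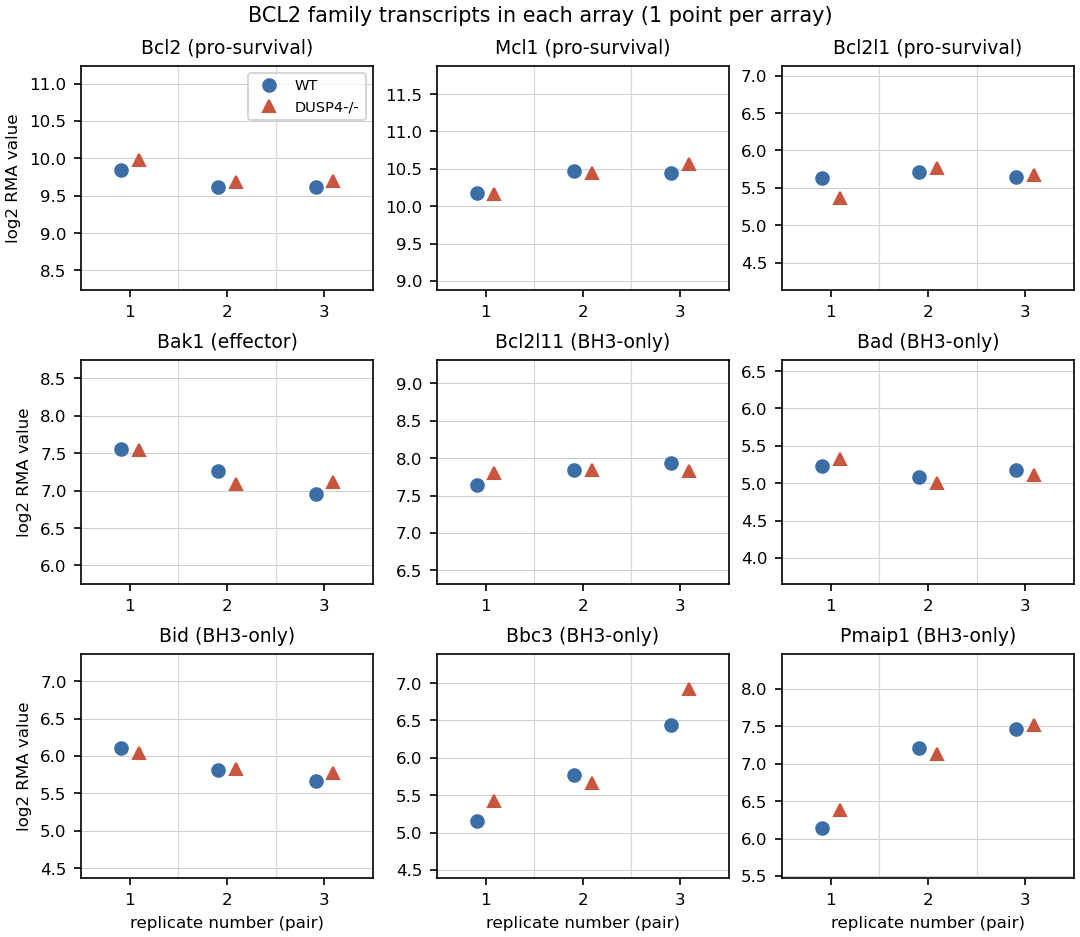
Log2 RMA value of each measured BCL2 family gene (y axis, the same span in every panel) in each of the 6 arrays, by replicate number (x axis); circles are WT and triangles DUSP4-/-. The symbols of a pair lie within 0.47 of each other in every panel, while Bbc3 and Pmaip1 lie lowest in replicate 1 (5.15 to 5.42 and 6.14 to 6.39) and highest in replicate 3 (6.44 to 6.92 and 7.47 to 7.51).

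Across the family, 0 of 9 members passed an adjusted p of 0.05 between the genotypes in limma, with or without the block, where the share over all 22180 genes was 0%. The adjusted p was 1.00 for every member without the block and 0.833 to 0.997 with it. At an unadjusted p of 0.05, limma called 0 of 9 members without the block, against 2.70% of all genes (1.79% higher and 0.911% lower in DUSP4-/-), and 0 of 9 with the block, against 6.19%. In 0 of 9 members did the groups fail to overlap, against 7.44% of all genes (5.02% higher and 2.43% lower). The exact two-sided permutation p was 0.5 to 1.0 over the members, and with 3 arrays a group it cannot fall below 0.1. A shared sign in all pairs was seen in 1 of 9 members, Bcl2, which was higher in DUSP4-/-, against 27.6% of all genes in either direction and 16.6% in that of Bcl2. Nothing in the labels says that samples came from separate animals beyond their numbering, so p-values measure the spread between these samples. Without the block, the intervals leave room for changes of up to 1.20 to 1.36-fold upward in the 7 steadier members and up to 2.30-fold in Bbc3, and none of these tests shows that the levels were equal.

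**Figure D2:**
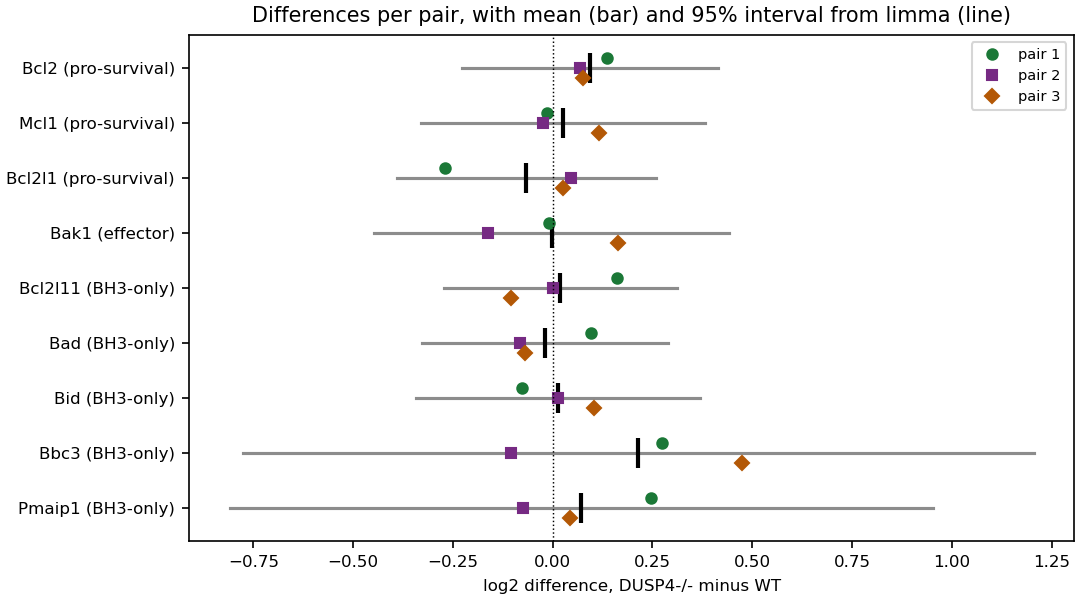
Log2 difference, DUSP4-/- minus WT (x axis), for each measured member (y axis, with its class); symbols are the 3 pairs, the black bar is the mean and the grey line the 95% interval from limma without the block. Every interval spans 0, and only for Bcl2 do all 3 pairs lie on one side of 0.

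Set against each other, the classes moved little. The median log2 difference was 0.026 for the 3 pro-survival genes, of which 2 lay above 0 and 1 below. It was 0.019 for the 5 BH3-only genes, of which 4 lay above 0 and 1 below, and -0.0025 for the effector Bak1. On leaving out 1 array the pro-survival median ranged from -0.069 to 0.058 and the BH3-only median from -0.062 to 0.083, so neither kept its sign. The median over all genes was 0.019, close to the medians of both multi-gene classes, and 12390 of the 22180 genes lay above 0 and 9790 below. By pair, the pro-survival median was -0.015, 0.046 and 0.075, and the median of the BH3-only genes with Bak1 was 0.13, -0.079 and 0.074. For each array, the mean deviation of the pro-survival genes from their own averages was also set against that of the BH3-only genes with Bak1. This balance was 0.16, 0.018 and -0.13 in WT replicates 1, 2 and 3 and -0.0095, 0.12 and -0.16 in DUSP4-/- replicates 1, 2 and 3. It was lowest in both arrays of replicate 3. In the WT and DUSP4-/- arrays of that replicate, Bbc3 lay 0.55 and 1.02 and Pmaip1 0.49 and 0.54 above its own average. Bak1 lay at -0.30 and -0.14 from its average there, so the genes set against the pro-survival ones did not move together. The balance without Bbc3 and Pmaip1 was not computed. The DUSP4-/- minus WT difference of the balance was -0.032 ± 0.13 (SD over 3 pairs), smaller than its own spread.

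The spread within a genotype was largest in Bbc3 and Pmaip1. In a limma F test of the replicate number with genotype in the fit, 2 of 9 members passed adjustment, against 2.45% of all genes. They were Bbc3 (F = 36.9, adjusted p = 0.0386) and Pmaip1 (F = 47.9, adjusted p = 0.0333). The adjustment covered all probe sets that name 1 gene alone. Before adjustment 3 of 9 members passed, Bak1 being the other, against 22.4% of all genes. Bbc3 was 2.63-fold higher in pair 3 than in pair 1 and 1.95-fold higher than in pair 2. Pmaip1 was 2.34-fold higher in pair 3 than in pair 1 and 1.87-fold higher in pair 2 than in pair 1. The SD of the pair means exceeded that of 99.3% of all genes for Bbc3 and 98.9% for Pmaip1, against 22.0 to 82.8% for the other 7 members. Both calls were lost on leaving out any 1 of the 6 arrays (adjusted p 0.0527 to 0.195 for Bbc3 and 0.0559 to 0.195 for Pmaip1). F in these fits was 19.3 to 46.0 for Bbc3 and 23.6 to 36.5 for Pmaip1. Such calls over all genes fell from 543 to between 4 and 102. The Bbc3 and Pmaip1 calls were also lost without both arrays of replicate 1, with adjusted p of 0.401 and 0.435. With an intensity trend and robust settings in eBayes, 5 of 9 members passed, Bcl2 (adjusted p = 0.0201), Mcl1 (0.00367) and Bak1 (0.0134) besides Bbc3 and Pmaip1, while the share over all genes rose to 17.7%.

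**Figure D3:**
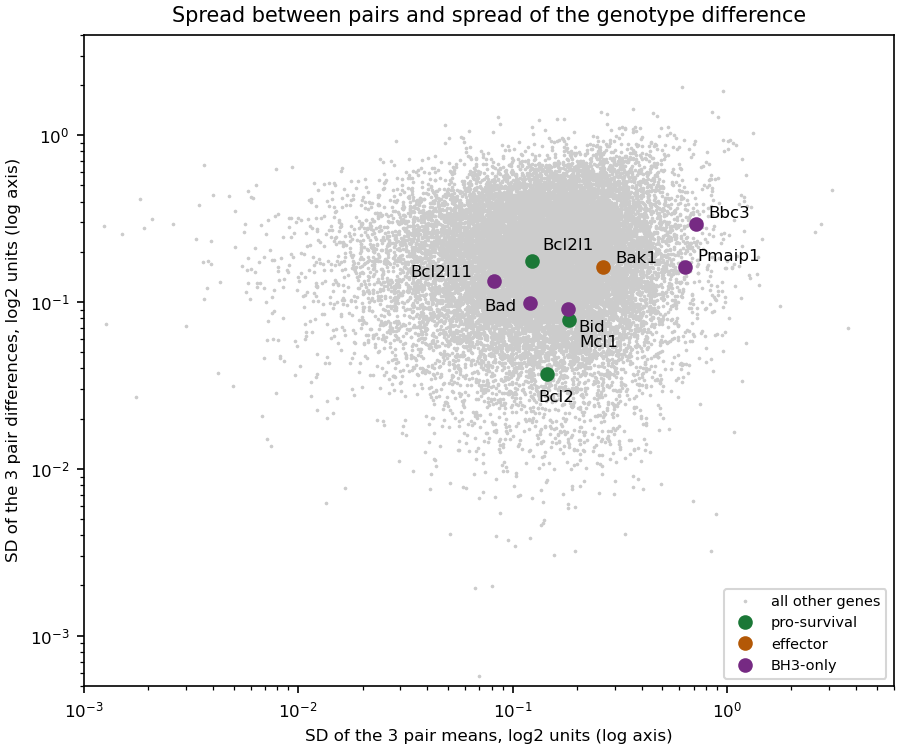
SD of the 3 pair means (x axis, log scale) against SD of the 3 DUSP4-/- minus WT pair differences (y axis, log scale), both in log2 units, for each measured member (colored by class) and all other genes (grey). Bbc3 and Pmaip1 lie to the right of 99.3% and 98.9% of genes on the x axis, while Bcl2 lies low on the y axis, with pair differences of 0.070 to 0.14.

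Correlations between members over the 6 arrays are given as descriptions, since arrays of a pair share their replicate number. They ran from strong to weak, with Pearson's r of 0.16 between Bcl2l1 and Bcl2l11 and -0.32 between Bad and Bbc3 among the weak ones. Pearson's r was 0.96 between Mcl1 and Pmaip1, 0.87 between Bbc3 and Pmaip1 and 0.96 between Bak1 and Bid. It was -0.98 between Bid and Pmaip1 and -0.93 between Bak1 and Pmaip1. Thus in the pair where NOXA and MCL1 transcripts were lowest, those of BAK1 and BID were highest. Among 11423 genes brighter than the median probe set, those most like Bbc3 were Tfip11 (r = 0.994), Epb41l4aos (0.993) and A630072L19Rik (0.991). Those most like Pmaip1 were Lemd3 (r = 1.00), Cops2 (0.998) and Cand1 (0.998), and those most like Bak1 were Mrpl34 (0.998), Tert (0.994) and Angel1 (0.994). Such likeness was common: 96, 460 and 336 genes had r above 0.95 with Bbc3, Pmaip1 and Bak1.

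Of 16 other listed BCL2 family genes, 12 were measured and 0 passed the genotype test in either direction or differed between replicate numbers. Their log2 differences lay above 0 in 6 and below 0 in 6, with a median of 0.0048. Bik, a BH3-only gene, had the largest difference of the list at 0.31 (SE 0.15), from 5.43, 5.66 and 5.82 in WT to 6.01, 5.79 and 6.06 in DUSP4-/-, and the groups overlapped. Bcl2l2, the gene for the pro-survival BCL-W, differed by 0.20 (SE 0.16), with pair differences of 0.32, 0.44 and -0.17. At the other end, Bcl2l13 differed by -0.11 and Bcl2l14 by -0.15. Bok, an effector-like gene, was the single gene of the list whose groups did not overlap, where 7.44% of all genes did not. Its log2 difference was 0.030.

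Downstream of the mitochondria, 16 of 18 listed genes were measured, 0 passed the genotype test, and the median log2 difference was 0.019. The 2 most positive differences were those of Birc5 (0.21), the inhibitor of apoptosis survivin, and Vdac2 (0.15), an outer membrane channel that binds BAK1. The 2 most negative were those of Endog (-0.15), a mitochondrial nuclease, and Dffa (-0.13), the inhibitor of the caspase-activated DNase. In the death receptor pathway, 12 of 13 genes were measured, 0 passed, and the median was -0.082. Of them 8 lay below 0, as did 9790 of all 22180 genes. Fas, the receptor, read 7.67, 6.95 and 7.08 in WT and 7.89, 7.18 and 7.35 in DUSP4-/-, with pair differences of 0.22, 0.23 and 0.27. Its adaptor Fadd had pair differences of -0.23, -0.21 and -0.27 and its ligand Fasl of -0.34, -0.30 and -0.18. With the block, none of the 3 passed adjustment (adjusted p = 0.770, 0.770 and 0.762). Of the 12 genes only these 3 kept the same sign in all pairs, which 27.6% of all genes did. Cyld, a deubiquitinase that favors cell death, differed by 0.057.

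Of 16 listed genes of p53 and its targets, 14 were measured, 0 passed the genotype test, and the median was -0.035. The 2 most negative differences were -0.38 for Phlda3 and -0.30 for Cdkn1a, and the 2 most positive 0.11 and 0.10 for the stress genes Sesn2 and Trp53inp1. Of 22 listed upstream regulators of the members, 18 were measured, and 0 passed. Next to Dusp4, Pim2, a survival kinase, had the most negative difference at -0.12, and Foxo1 (0.088) and Stat5b (0.085) had the most positive. In 18 immediate early genes the median was -0.062, with differences from -0.32 (Fos) and -0.28 (Ier3) to 0.095 (Nr4a1) and 0.15 (Nr4a2). In 11 of 12 listed cell cycle genes the median was 0.21, with 9 above 0, as were 12390 of all 22180 genes. Kif11 (0.41) and Rrm2 (0.38) were the most positive and Tyms (-0.12) and Mcm5 (-0.084) the most negative, and the pair medians of 0.28, 0.40 and -0.21 did not share a sign. None of the genes in these lists passed the adjusted threshold with the block either.

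The replicate number, by contrast, was called for several genes of these pathways, which are named here after their values were seen. It was called for 1 of 16 mitochondrial, 2 of 12 death receptor and 2 of 14 p53 list genes and 4 of 18 regulators. The share over all genes was 2.45%. Cdkn1a, the p53-induced cell cycle inhibitor p21, read 5.67, 6.41 and 8.02 in WT and 5.44, 6.26 and 7.51 in DUSP4-/- (adjusted p = 0.0152). Tnfrsf10b, the TRAIL receptor, read 6.20, 7.18 and 7.87 in WT and 5.77, 7.14 and 7.95 in DUSP4-/- (adjusted p = 0.0220). As for Bbc3 and Pmaip1, replicate 1 was lowest and replicate 3 highest in both genotypes. The same order of pairs was seen in Fasl (6.35 to 6.69 in replicate 1 and 7.41 to 7.58 in replicate 3), in Birc2 (7.93 to 8.07 and 9.20 to 9.31) and, among the regulators, in Pim1 (9.32 to 9.40 and 10.98 to 11.10), Stat5a (7.08 to 7.29 and 8.29 to 8.37) and Dusp4. Polk and Il7r had the reverse order, with Il7r, the IL-7 receptor chain upstream of Bcl2, at 11.22 and 11.26 in replicate 1 and 10.32 and 10.36 in replicate 3. The p53 list did not share a single order. By pair means, the uncalled genes Mdm2 and Trp53inp1 had the order of Bbc3 and Pmaip1. Ccng1, Zmat3 and Aen, also uncalled, had the reverse order, and the other uncalled genes of that list had neither.

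**Figure D4:**
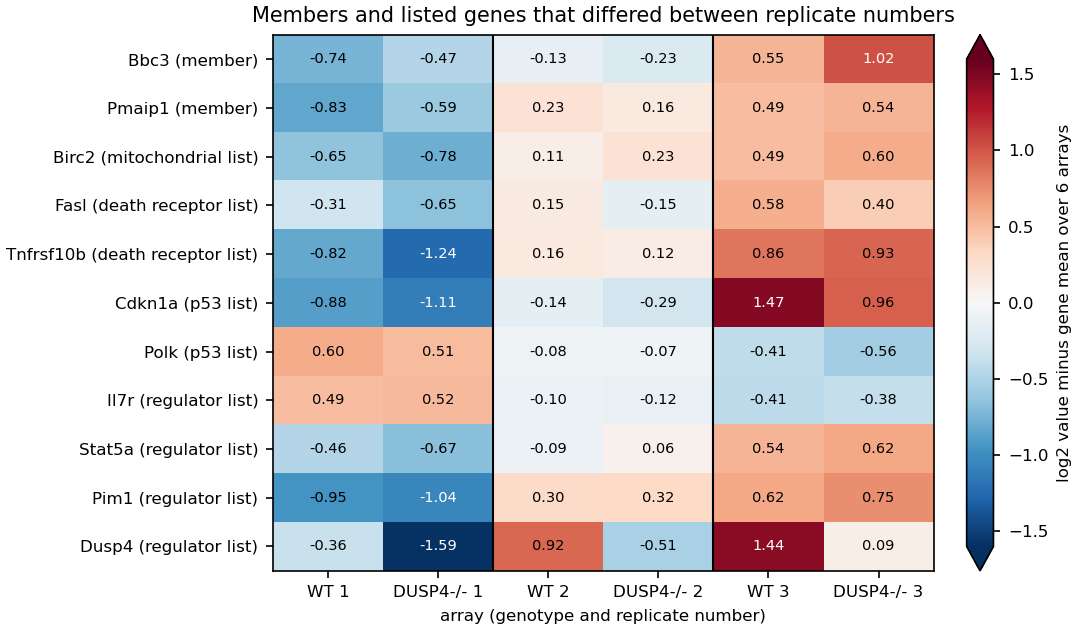
Log2 value minus the mean of that gene over the 6 arrays (color and printed value) for the members and for genes of the mitochondrial, death receptor, p53 and regulator lists that differed between replicate numbers, with arrays ordered by pair (x axis) and genes in rows (y axis). Of 11 rows, 9 are lowest in pair 1 and highest in pair 3 on average, Polk and Il7r have the reverse order, and Dusp4 also differs between the genotypes of each pair.

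Other transcripts moved with the replicate number as well. Of the 18 immediate early genes, 9 differed between replicate numbers, where 2.45% of all genes did, and such calls fell from 543 genes to between 4 and 102 when any 1 array was left out. Among the 9 was Nr4a1 at 9.08, 10.30 and 10.90 in WT and 9.09, 10.36 and 11.12 in DUSP4-/-. By pair means, Fosb, Junb, Nr4a2, Dusp2 and Atf3 were also lowest in pair 1 and highest in pair 3. Dusp1 and Klf6 were highest in pair 2, and Egr3 had the reverse order (7.02, 6.44 and 6.20). Of the uncalled genes, Jund, Ier2, Ier3 and Zfp36 were lowest in pair 1 and highest in pair 3. Fos (9.18, 9.75 and 8.47), Jun and Egr1 were highest in pair 2, and Egr2 and Btg2 were lowest in it. The immediate early list thus did not share a single order. The summed level of the list was 13.34, 13.99 and 14.02 in WT and 13.18, 13.96 and 14.10 in DUSP4-/-. Of 8 measured B cell markers of 9 listed, 3 differed between replicate numbers (Cd79a, Cd79b and Cd22), and the summed level was 10.14, 9.06 and 9.50 in WT and 10.16, 9.12 and 9.48 in DUSP4-/-. B cell transcripts were thus highest in replicate 1 and lowest in replicate 2. The count was 2 of 7 for plasma cell markers, 2 of 6 for dendritic cell markers, 1 of 4 for erythroid and platelet markers, and 0 for T cell, NK cell, monocyte and macrophage, and neutrophil markers. Other called markers had other orders. Pair means over replicates 1, 2 and 3 were 7.95, 8.60 and 9.09 for the plasma cell marker Xbp1, the order of Bbc3 and Pmaip1, and 10.21, 9.49 and 10.34 for Jchain. They were 6.09, 5.21 and 5.05 for the dendritic cell marker Xcr1 and 5.39, 4.73 and 4.36 for the erythroid marker Klf1, the reverse order, and 6.85, 6.81 and 7.85 for Bst2. The part of these transcripts in the spread of Bbc3 and Pmaip1 was not tested.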

How the data were processed

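Total RNA of MACS-enriched splenic T cells was measured in 3 WT and 3 DUSP4-/- samples, each on its own Affymetrix Mouse Gene 2.0 ST array. The authors deposited log2 values from RMA, run in Affymetrix Expression Console (versions not given in the sources used here). RMA removes background, forces all arrays onto 1 common distribution and combines the probes of a probe set. Levels are therefore relative to the other transcripts of an array, small changes are compressed near background, and probe sets of different genes cannot be ranked against each other. For their own comparison, the authors used an ANOVA in Transcriptome Analysis Console. The authors' genome build for the array is not given in the sources used here, and chromosomes are those of GRCm38.p6.

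Of the probe sets, 23521 name 1 gene alone, 1820 name several and 16004 name none in the annotation used, and only the first were tested. Of these, 23328 were matched to GRCm38.p6 by Entrez gene identifier. Several probe sets were present for 1082 genes, and the brightest by its mean over the 6 arrays stood for each, giving 22180 genes. DUSP4-/- minus WT differences came from limma 3.58.1 in R 4.3.3 (lmFit, eBayes) over all tested probe sets with no block. Benjamini-Hochberg adjustment covered all of them, with a threshold of 0.05. The replicate number was tested by a moderated F test in a fit with genotype. Summed levels of lists are the log2 of summed linear values. The procedure was tested on simulated data.

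Samples with the same number were checked for pairing. Their deviations from the genotype means correlated over genes at 0.308 to 0.578, against -0.436 to 0.103 for samples of other numbers, and the study describes pairs, so the numbers were taken to pair the samples. For each gene the deviations within a genotype cancel out, so positive same-number correlations by themselves pull those of other numbers down. The ranges are therefore not independent of each other. Genes are not independent replicates.

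The members and lists were chosen with earlier results of these data known. Members are described in full. Of each pathway list, the 2 most positive and 2 most negative differences are named, and for the 3 members with the largest SD, the 3 genes most correlated over the 6 arrays among those brighter than the median probe set. Alternatives were the replicate block, leaving out each array, leaving out dim probe sets, a trended and robust eBayes, array weights, repeated quantile normalization, averaging all probe sets of a gene, subtraction of array medians, a one-way ANOVA and a threshold of 0.1. Leaving out both arrays of replicate 1, and the promoter motifs, were chosen after seeing the data. Precision is limited by the number of arrays.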

Additional observations from a re-analysis of the deposited data

How the results depend on the processing

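The count of members past the adjusted threshold between the genotypes was 0 of 9 in limma and stayed 0 under the replicate block, on leaving out each array, and under all other alternatives run, including the one-way ANOVA and the threshold of 0.1. The unadjusted count was 0 in limma with and without the block and 0 by ANOVA. The replicate block changed no genotype call, and the lowest adjusted p of any member under any alternative was 0.833, for Bbc3 with the block. Of the 99 member differences under the 11 alternatives that can move at least some of them, 27 changed sign. The block, the dim filter, the trended eBayes and the ANOVA leave a difference as it is. The mean over probe sets moved only those of Bcl2 and Mcl1. On leaving out 1 array, the log2 differences ranged from -0.00072 to 0.17 for Bcl2, -0.069 to 0.14 for Mcl1, -0.15 to 0.052 for Bcl2l1, -0.15 to 0.15 for Bak1, -0.062 to 0.083 for Bcl2l11, -0.11 to 0.055 for Bad, -0.085 to 0.14 for Bid, -0.24 to 0.54 for Bbc3 and -0.33 to 0.38 for Pmaip1, the pro-survival median from -0.069 to 0.058, the BH3-only median from -0.062 to 0.083, and the median of BH3-only genes with Bak1 from -0.023 to 0.047. Array weights gave -0.0024 for Mcl1 and -0.027 for Pmaip1, repeated quantile normalization 0.022 for Bak1, and subtraction of array medians -0.0019 for Bid. The mean over probe sets gave -0.039 for Bcl2 and, through it, for the pro-survival median. Leaving out both arrays of replicate 1 gave 0.036 for Bcl2l1, 0.00090 for Bak1, -0.052 for Bcl2l11 and -0.016 for Pmaip1. Members differing between replicate numbers numbered 2 in the fit reported, 0 to 0 without any 1 array, 0 without replicate 1 of both genotypes (fewer arrays in each), 3 without dim probe sets (Bak1 added, adjusted p = 0.0384) and 5 with a trend and robust eBayes. The genes called numbered 543, 4 to 102, 0, 2965 and 3922 in the same order. Why the last 2 settings called more was not tested. The Bbc3 and Pmaip1 calls held on repeated quantile normalization, subtraction of array medians and averaging of probe sets. In that order, the F test gave adjusted p of 0.0465, 0.0394 and 0.0414 for Bbc3 and 0.0439, 0.0340 and 0.0342 for Pmaip1. The genes called numbered 522, 593 and 471.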
